A study of Mus musculus with 61 samples.

Results

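The genes described here make, modify, store and export cholesterol and fatty acids. They were taken by name from a list of 33 genes of these pathways, and 32 of them had an array probe set that carries a single gene symbol, out of 18194 genes with such a probe set. Soat1, which esterifies cholesterol for storage, had none and is not described further. Where a gene had several probe sets (69 in all), the one with the highest mean over all 61 arrays was used. The 32 genes fall by role into 4 regulators, 6 enzymes of the mevalonate steps, 8 enzymes that lead from farnesyl units through squalene to cholesterol, 8 genes of fatty acid synthesis and 6 genes of lipid storage, efflux and lipoproteins.

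Cells build cholesterol from acetyl-CoA by way of mevalonate, farnesyl diphosphate and squalene. When membrane sterol is low, the transcription factor encoded by Srebf2 leaves the endoplasmic reticulum and turns on these enzymes nearly as a block, and the Insig1 protein holds it back when sterol is plentiful. Srebf1 has the same part for fatty acid genes. Surplus sterol acts through LXR receptors, which turn on Abca1, Abcg1 and Apoe, the genes that carry cholesterol out of cells, and foam cells, which are macrophages loaded with cholesterol, express them strongly.

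All mice were of the NOD strain, whose males develop lymphocyte infiltrates in the lacrimal gland, and per the study's methods the mice treated for the lacrimal work were male. The methods also list female mice and do not state the sex of the mice behind the salivary arrays. The antagonist LTBR-Ig joins the murine lymphotoxin-beta receptor to an immunoglobulin Fc, and MOPC-21 is the control monoclonal antibody. Either was injected into the peritoneum once a week from week 8, so that mice had 4 weeks of treatment at week 12 and 8 weeks at week 16. Lacrimal arrays comprised 4 of LTBR-Ig and 4 of MOPC-21 at week 12, 4 of LTBR-Ig and 4 of MOPC-21 at week 16, and, from untreated mice, 4 at week 8, 3 at week 12, 4 at week 14 and 4 at week 16. Salivary arrays were laid out in the same way, with 2 of LTBR-Ig at week 12 and 4 in each of the other groups. Each lacrimal array held both glands of a mouse. Per the study's methods, the submandibular, salivary and parotid glands were combined, while the labels of the salivary arrays say only SUB.

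Values are log2 expression, background-corrected and normalized by the authors, and a value of 4 was taken as the floor of detection. On each array, 37.3% to 41.4% of all probe sets lay above that floor, and arrays of a group correlated at 0.9593 or more. Salivary arrays had the products of their gland. The 8 salivary product genes summed to a linear signal of 218000 to 225000 at week 8, against 2730 to 5220 in lacrimal arrays of that age, where 6 of the 8 were at or below the floor. However, Amy1, which encodes salivary amylase, exceeded a log2 value of 8 in 8 of the 31 lacrimal arrays. These were 2 of LTBR-Ig week 12, 2 of LTBR-Ig week 16, 1 of MOPC-21 week 12, 1 of untreated week 12 and 2 of untreated week 16. In salivary arrays Amy1 itself ranged over 4.58 to 14.88, and each array of untreated week 8 was at 5.56 or below. Amy1 also did not mark every lacrimal array with a high sum of the 8 salivary product genes. Their sum reached 36000 in lacrimal arrays of untreated week 14, where Amy1 was at 3.494 or below. Salivary MOPC-21 week 12 replicate 2 stood apart in several members, such as Apoe at 6.80, where the other 3 arrays of the group had 9.41 to 9.82. All 6 skeletal muscle markers were too low to be tested.

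Lacrimal glands of untreated mice were first compared between week 16 and week 8, the oldest and youngest ages on the arrays. Cholesterol synthesis genes were lower and cholesterol export genes higher at week 16. Of the 29 members that could be tested, 6 were called higher and 9 lower, a call being a fold of 2 or more with an adjusted p under 0.05 (limma, Benjamini-Hochberg over all probe sets tested). Of all genes, 12.6% were called higher and 4.54% lower. At any fold, 6 members passed the test higher and 16 lower, while 24.4% of all genes passed higher and 31.7% lower. Pparg (above the floor in 3 of the 61 arrays), Mvd (in 0) and, in lacrimal glands, Elovl6 were too low to be tested. These are whole glands, so that fewer cells of a type and less RNA per cell cannot be told apart.

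**Figure D1:**
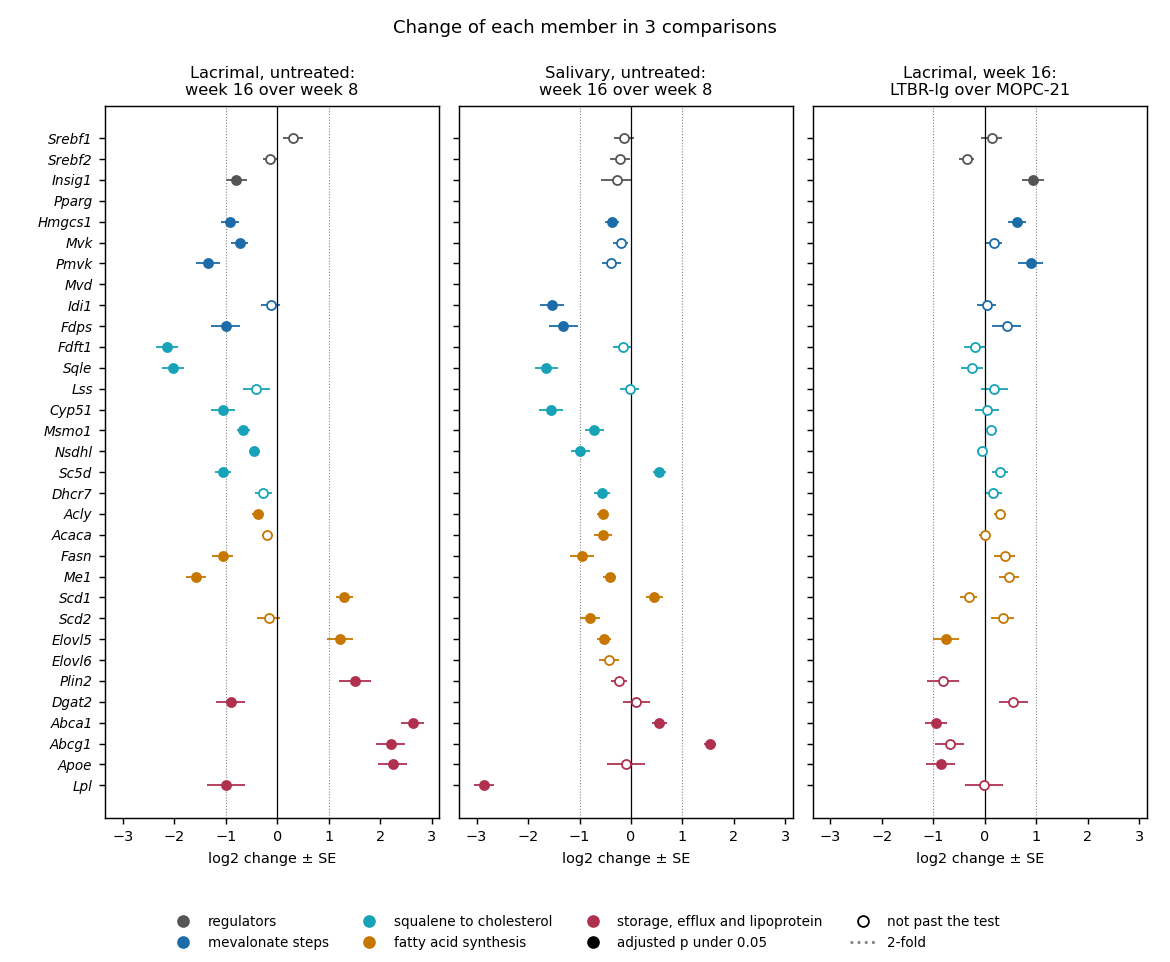
Log2 change of each tested member (horizontal axis, bars ± SE) in lacrimal week 16 over week 8, salivary week 16 over week 8, and lacrimal LTBR-Ig over MOPC-21 at week 16, with genes on the vertical axis grouped by role. Filled points passed the test at an adjusted p under 0.05 and dotted lines mark a fold of 2; in the left panel 16 filled points lie below 0 and 6 above, and in the right panel no point reaches the dotted lines.

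Of the mevalonate steps, 4 of 5 tested genes passed the test and all 4 were lower, with a median change of the 5 of -0.92, where the median of all genes was -0.08. Hmgcs1, the synthase that makes HMG-CoA, had log2 values of 10.02, 10.28, 9.96 and 9.60 at week 16, against 11.26, 10.80, 10.80 and 10.69 at week 8, a change of -0.92 (SE 0.168, adjusted p = 6.7e-05). Pmvk, phosphomevalonate kinase, stood at 7.74, 7.39, 7.46 and 7.55 at week 16, against 8.93, 9.42, 8.73 and 8.43 at week 8 (-1.34, SE 0.24, adjusted p = 5.1e-05). Neither gene overlapped between the ages. Fdps, which makes farnesyl diphosphate, fell to 8.61 to 8.72 at week 16, against 9.22 to 9.99 at week 8 (-1.004, adjusted p = 0.0042). Mvk, mevalonate kinase, passed the test with all 4 week 16 arrays below the floor, and to the floor it was at least 1.48-fold lower. Idi1, the isomerase of isopentenyl diphosphate, did not pass (-0.13, adjusted p = 0.56).

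Of the 8 genes from squalene to cholesterol, 6 passed the test, all lower, and the median change of the 8 was -0.85. Fdft1, squalene synthase, the first step given over to sterols, was at 5.51, 5.49, 5.26 and 5.65 at week 16, against 7.38, 7.52, 7.93 and 7.64 at week 8. This is a change of -2.14, or 4.4-fold lower (SE 0.213, adjusted p = 1e-08), and a second Fdft1 probe set gave -2.16. Sqle, squalene epoxidase, was at 2.88, 2.87, 3.13 and 2.97 at week 16, below the floor, against 5.08, 5.28, 4.62 and 4.97 at week 8. Its fitted change of -2.02 (SE 0.22, adjusted p = 4.1e-08) therefore rests on values near background, and to the floor of 4 it was at least 1.98-fold lower. Sc5d, sterol C5-desaturase, had 5.91, 5.54, 5.77 and 5.60 at week 16, against 6.81, 6.78, 6.74 and 6.71 at week 8 (-1.055, SE 0.155, adjusted p = 4e-06). For all 3 genes each week 16 array lay below each week 8 array. A second Sc5d probe set changed by -0.25 and did not pass (adjusted p = 0.26).

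Cyp51, the lanosterol demethylase, was called as well (-1.05, adjusted p = 0.00047), at 4.69 to 5.24 in week 16 arrays, against 5.74 to 6.35 in week 8 arrays. Msmo1, a methylsterol oxidase, changed by -0.66 (adjusted p = 6.1e-05) and Nsdhl, a sterol dehydrogenase, by -0.45 (adjusted p = 0.0008). Each passed the test at less than 2-fold. Lss, which closes the sterol rings, and Dhcr7, which reduces the last double bond, did not pass, at -0.41 and -0.27. A second Lss probe set did (-0.87, adjusted p = 0.0011). Over all 8 lacrimal groups, treated and untreated, untreated week 8 had the highest mean in 13 of the 14 genes of sterol synthesis, Mvd below the floor included, and Idi1 was the exception. The share of all genes with their highest mean at week 8 was not counted, so this count is not set against all genes.

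Since 10 of the 14 sterol synthesis genes passed the test lower at week 16, the promoters of this group were read from RefSeq (GRCm38.p6), taking the 250 bases before the listed transcription start. The table had an entry for 11 of these 14 genes, and Fdps, Fdft1 and Sqle had none. The NF-Y box CCAAT, on either strand (ATTGG on the other), was in all 11 windows, against 37.5% of the 27025 genes in the table. A gene with several listed starts was counted once if any of its windows held the motif. The box was also in 4 of 4 regulators, 3 of 6 fatty acid genes and, among storage and efflux genes, 1 of 3. The string TCACNCCAC, the only form of the sterol regulatory element searched, was in 1 of the 11, Hmgcs1, against 1.22% of all genes. The E-box CACGTG was in 2 of the 11, Sc5d and Dhcr7, against 6.86%. Of the other members, Insig1, Elovl5 and Abca1 had the E-box. A match is a string of letters and not a proven site. A window without a match can still hold an element of another form. The windows below show 3 sterol synthesis genes that were lower at week 16 and, for contrast, Abca1, the member that was most increased. Capitals mark CCAAT or ATTGG in the first 3, TCACCCCAC in Hmgcs1 and CACGTG in Abca1, and none of these overlap.
Hmgcs1, chr13:119690101-119690350, plus strand: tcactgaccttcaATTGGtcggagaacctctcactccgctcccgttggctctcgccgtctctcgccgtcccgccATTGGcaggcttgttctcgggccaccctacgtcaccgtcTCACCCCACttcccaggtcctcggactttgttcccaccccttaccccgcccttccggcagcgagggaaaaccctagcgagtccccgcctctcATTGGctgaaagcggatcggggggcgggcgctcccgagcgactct
Cyp51, chr5:4104698-4104947, minus strand: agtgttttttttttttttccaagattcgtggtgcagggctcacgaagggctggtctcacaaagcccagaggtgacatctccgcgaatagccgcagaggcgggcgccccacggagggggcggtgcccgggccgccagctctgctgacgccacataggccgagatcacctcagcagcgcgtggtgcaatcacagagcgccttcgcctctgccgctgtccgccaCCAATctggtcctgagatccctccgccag
Nsdhl, chrX:72918271-72918520, plus strand: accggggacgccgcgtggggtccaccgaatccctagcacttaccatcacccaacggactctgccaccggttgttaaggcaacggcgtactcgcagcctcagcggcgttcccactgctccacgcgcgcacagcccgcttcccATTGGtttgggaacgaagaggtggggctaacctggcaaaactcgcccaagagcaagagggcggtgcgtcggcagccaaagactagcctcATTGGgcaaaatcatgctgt
Abca1, chr4:53159896-53160145, minus strand: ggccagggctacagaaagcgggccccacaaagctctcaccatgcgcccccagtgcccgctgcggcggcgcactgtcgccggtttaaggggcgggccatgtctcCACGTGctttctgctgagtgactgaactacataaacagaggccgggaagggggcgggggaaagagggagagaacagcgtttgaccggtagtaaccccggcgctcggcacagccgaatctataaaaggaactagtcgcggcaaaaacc
Hmgcs1 has 3 CCAAT boxes and its TCACCCCAC match begins 137 bases before the start. Cyp51 has 1 box, Nsdhl has 2, and Abca1 has none, with an E-box that begins 147 bases before the start.

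Of the 3 regulators tested, 1 passed. Insig1 was at 8.17, 8.07, 8.02 and 8.01 at week 16, against 9.47, 9.21, 8.40 and 8.38 at week 8, lower at week 16 (-0.80, SE 0.21, adjusted p = 0.0025). The groups did not overlap, although 2 of the week 8 arrays lay close to the week 16 level. Srebf2, the regulator of sterol synthesis, ranged over 6.14 to 6.26 at week 16, against 6.25 to 6.37 at week 8 (-0.13, adjusted p = 0.46). Srebf1 did not pass either (+0.30, adjusted p = 0.2). Transcript levels do not show how much of either factor is cleaved.

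Fatty acid synthesis genes were mixed. Of 7 tested, 2 passed higher and 3 lower, with a median change of -0.19. Me1, malic enzyme, which supplies NADPH, was at 6.89, 6.66, 6.73 and 6.15 at week 16, against 8.25, 8.19, 8.17 and 8.11 at week 8 (-1.57, SE 0.192, adjusted p = 2.5e-07). Fasn, fatty acid synthase, was at 7.51 to 7.96 at week 16, against 8.23 to 9.16 at week 8 (-1.06, adjusted p = 0.00014). In contrast, Scd1, a stearoyl-CoA desaturase, had 11.12, 11.36, 11.57 and 11.46 at week 16, against 10.60, 10.46, 9.39 and 9.86 at week 8 (+1.30, SE 0.166, adjusted p = 5.4e-07). All week 16 arrays exceeded all week 8 arrays. Elovl5, which elongates polyunsaturated fatty acids, was also called higher (+1.22, adjusted p = 0.00022). Acly, which makes cytosolic acetyl-CoA, changed by -0.37 (adjusted p = 0.0081). Acaca, acetyl-CoA carboxylase, and the desaturase Scd2 did not pass, at -0.19 and -0.16.

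Genes of storage and export had the largest increases. Abca1, which loads cholesterol onto lipid-poor apolipoproteins, was at 10.18, 10.54, 10.61 and 10.77 at week 16, against 8.09, 8.15, 7.46 and 7.86 at week 8. The change was +2.63 or 6.2-fold (SE 0.218, adjusted p = 4.5e-10), and its 2 other probe sets gave +2.50 and +2.68. Apoe, the apolipoprotein, stood at 10.59, 10.43, 10.77 and 11.04 at week 16, against 8.49, 8.38, 8.18 and 8.79 at week 8 (+2.25, SE 0.283, adjusted p = 4.4e-07). Abcg1, which exports cholesterol to mature lipoproteins, had 8.16, 8.46, 8.64 and 9.13 at week 16, against 6.66, 6.46, 5.90 and 6.54 at week 8 (+2.21, SE 0.283, adjusted p = 5.6e-07). None of the 3 overlapped between the ages.

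Plin2, the coat protein of lipid droplets, was also called higher (+1.52, adjusted p = 0.00024), at 5.88 to 6.65 in week 16 arrays, against 3.92 to 5.23 in week 8 arrays. Dgat2, which makes triglyceride, passed the test lower at -0.91 (adjusted p = 0.0075). Lpl, lipoprotein lipase, was called lower (-1.002, adjusted p = 0.024), yet its arrays overlapped, with 6.60 to 7.25 at week 16, against 7.14 to 8.38 at week 8.

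Markers of leukocytes moved with these results. Of the 10 macrophage markers, 8 were called higher at week 16 and their summed linear signal was 7130 to 12100, against 554 to 1060 at week 8, with Itgam at or below the floor at week 8. The B cell markers summed to 1910 to 3640 at week 16, against 47.1 to 85.0 at week 8, and all 5 tested were called higher, as were all 4 T cell markers tested. Of 4 endothelial markers tested, 1 was called higher and 1 lower. None of the 6 epithelial markers was called, with 1 past the test higher and 2 lower. Adipocyte markers summed to 339 to 1280 at week 16, against 481 to 827 at week 8, and 4 of 8 (Cidec, Lep, Retn and Slc2a4) were at or below the floor in both groups. The 8 salivary product genes also differed, with sums of 116 to 68000 at week 16, against 2730 to 5220 at week 8. Amy1 was above 8 in 2 of the 4 week 16 arrays and in 0 of the 4 week 8 arrays. The part of leukocytes or of salivary transcripts in the changes of the members was not tested.

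**Figure D2:**
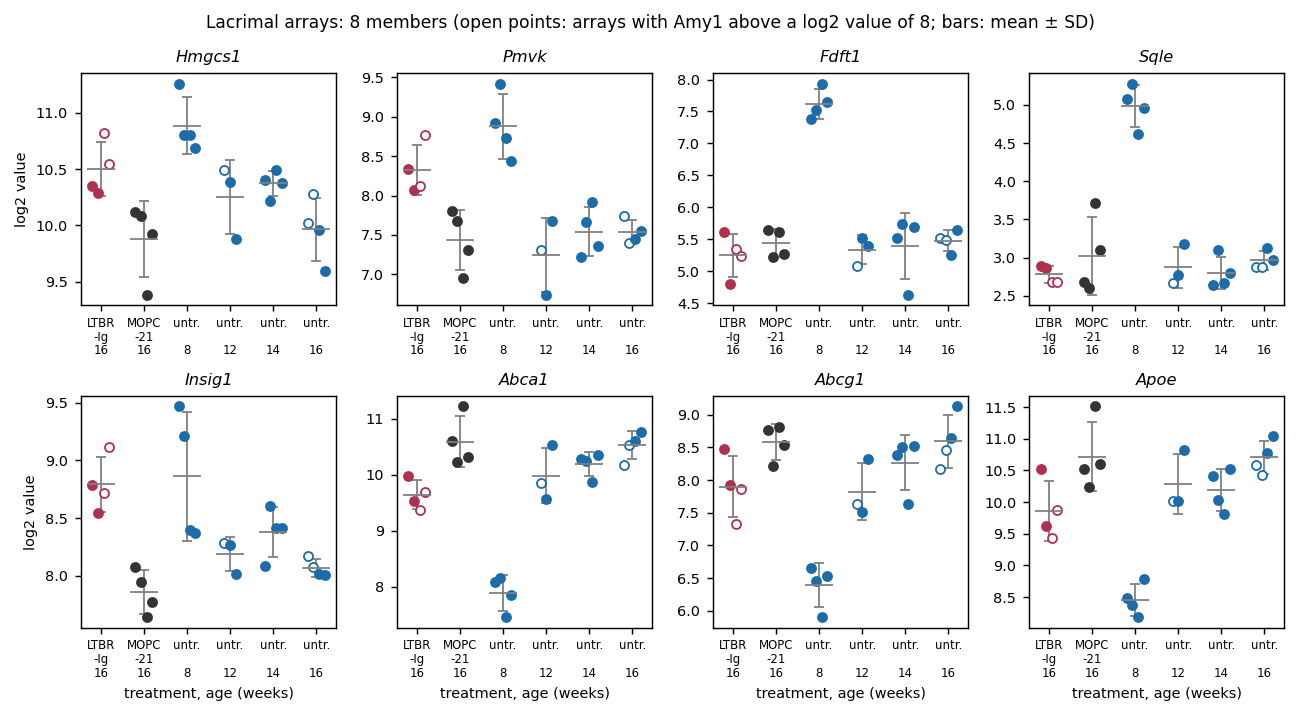
Log2 value (vertical axis) of 8 members in each lacrimal array of LTBR-Ig and MOPC-21 at week 16 and of untreated mice at weeks 8, 12, 14 and 16 (horizontal axis), with bars for mean ± SD and open points for arrays with Amy1 above 8. Fdft1 stands at 7.38 to 7.93 at week 8 and below 6 in every other array shown, whereas Abca1 stands at 7.46 to 8.15 at week 8 and above 9 elsewhere.

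The leading changes were present at week 12. All these comparisons share the week 8 arrays, so their values are given side by side. At week 12, 3 members were called higher and 6 lower, where 6.99% and 3.72% of all genes were. At week 14, 5 were higher and 8 lower, where 11.0% and 3.35% of all genes were. Fdft1 differed from week 8 by -2.28 at week 12 (arrays at 5.08, 5.53 and 5.40), -2.22 at week 14 (5.52, 5.74, 4.63 and 5.68) and -2.14 at week 16. Sqle was below the floor in every array of weeks 12, 14 and 16. Abca1 differed by +2.10 at week 12 (9.86, 9.57 and 10.53), +2.30 at week 14 (10.29, 10.24, 9.88 and 10.35) and +2.63 at week 16. For Pmvk the changes were -1.64, -1.34 and -1.34, and for Cyp51 they were -1.37, -1.06 and -1.05. Apoe gave +1.82, +1.74 and +2.25, and Abcg1 gave +1.44, +1.88 and +2.21. Me1 gave -1.19, -1.11 and -1.57. Leaving out each array in turn moved the week 12 count of 9 calls to between 7 and 11.

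Other genes of the same pathways, which are not members, were counted for context. Of 9 further sterol genes tested, 2 passed higher and 4 lower, and only Stard4, a sterol transfer protein, was called (adjusted p = 0.016). All its week 8 arrays were at or below the floor, and to the floor it was at least 1.6-fold higher. Scap, which escorts the SREBP proteins, changed by -0.70 (adjusted p = 7.6e-06). Of 12 further fatty acid genes, 8 passed lower and 2 higher, among them Acacb, the mitochondrial acetyl-CoA carboxylase (adjusted p = 1.7e-05), and the elongase Elovl7 (adjusted p = 3.5e-05). Both were at or below the floor in all week 16 arrays, and to the floor they were at least 2.03-fold and at least 1.47-fold lower. Of 9 further efflux and lipoprotein genes, 4 were called, all higher. They were Pltp, phospholipid transfer protein (+2.36, adjusted p = 9.7e-07), Lipa, lysosomal acid lipase (+1.62), Npc2, a lysosomal cholesterol carrier (+1.55), and Apoc1 (+1.48). Of 7 other lipid droplet and triglyceride genes, 2 passed lower, among them Mgll, monoglyceride lipase (-1.56). Of 11 fatty acid oxidation genes, 7 passed lower and 1 higher, and none was called.

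LTBR-Ig was compared with MOPC-21 in lacrimal glands at week 16. No member was called (limma), where 0.445% of all genes were called higher and 5.52% lower, and 11 of 29 members had an unadjusted p under 0.05, as did 39.5% of all genes. At any fold, 3 passed the test higher and 3 lower, where 7.43% of all genes passed higher and 15.3% lower. Insig1 was at 8.79, 8.54, 8.72 and 9.12 in LTBR-Ig glands, against 8.07, 7.95, 7.64 and 7.77 in MOPC-21 glands (+0.93, SE 0.21, adjusted p = 0.0083). Pmvk had 8.34, 8.07, 8.13 and 8.76 in LTBR-Ig glands, against 7.80, 7.68, 6.96 and 7.30 in MOPC-21 glands (+0.89, SE 0.24, adjusted p = 0.015). Neither overlapped. Hmgcs1 stood at 10.35, 10.29, 10.82 and 10.55 in LTBR-Ig glands, against 10.12, 10.08, 9.38 and 9.92 in MOPC-21 glands (+0.63, SE 0.168, adjusted p = 0.015).

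The 3 members that passed lower were an elongase and 2 of the 3 export genes. Abca1 was at 9.97, 9.53, 9.38 and 9.70 in LTBR-Ig glands, against 10.61, 10.23, 11.22 and 10.31 in MOPC-21 glands (-0.95, SE 0.218, adjusted p = 0.0088), with no overlap. The other 2 Abca1 probe sets gave -1.13 (adjusted p = 0.0064) and -1.34 (adjusted p = 0.015). Apoe had 10.52, 9.62, 9.44 and 9.88 in LTBR-Ig glands, against 10.53, 10.24, 11.51 and 10.60 in MOPC-21 glands (-0.86, SE 0.283, adjusted p = 0.033), and LTBR-Ig replicate 1 reached the MOPC-21 range. Elovl5 was at 7.87, 7.55, 6.92 and 7.43 in LTBR-Ig glands, against 8.27, 7.80, 8.84 and 7.89 in MOPC-21 glands (-0.76, SE 0.25, adjusted p = 0.033), again with overlap. Abcg1, the other export gene, did not pass (-0.68, adjusted p = 0.077), at 7.33 to 8.48 in LTBR-Ig glands, against 8.22 to 8.81 in MOPC-21 glands. Fdft1 and Sqle, the members that fell most with age, did not pass, at -0.19 (adjusted p = 0.53) and -0.25 (adjusted p = 0.41). Of the 22 members that had passed with age, 18 (81.8%) had the opposite sign here, close to the 83.8% among all 5675 genes that had passed with age. Outside the members, the efflux genes Pltp (-1.19, adjusted p = 0.013) and Scarb1, an HDL receptor (adjusted p = 0.015), were called lower, and Ppargc1a, a coactivator of fatty acid oxidation, was called higher (adjusted p = 0.0056). Scarb1 was at or below the floor in all LTBR-Ig arrays, at least 1.87-fold lower to the floor, and Ppargc1a in all MOPC-21 arrays, at least 1.4-fold higher to the floor.

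Against untreated mice of week 16, LTBR-Ig glands had no member called (limma) and 12 of 29 at an unadjusted p under 0.05, as were 29.8% of all genes. At any fold, 3 passed higher, where 1.66% of all genes did, and 1 lower, where 8.01% did. These were Insig1 (+0.72, adjusted p = 0.033), Pmvk (+0.79, adjusted p = 0.039), Hmgcs1 (+0.54, adjusted p = 0.044) and Abca1 (-0.88, adjusted p = 0.021), while Apoe missed the threshold (-0.84, adjusted p = 0.055). This comparison shares the LTBR-Ig arrays with that against MOPC-21. Between MOPC-21 and untreated glands no member passed (limma), 0 had an unadjusted p under 0.05, against 1.94% of all genes, and 0% of all genes passed. After 4 weeks of treatment, at week 12, no member passed between LTBR-Ig and MOPC-21 and 1 had an unadjusted p under 0.05, where 0.0988% of all genes passed and 8.53% had such a p.

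These differences at week 16 stood beside others between the same arrays. Salivary product genes summed to 8860 to 74300 in LTBR-Ig glands, 87.0 to 1400 in MOPC-21 glands and 116 to 68000 in untreated glands, and 6 of the 8 were called higher in LTBR-Ig than in MOPC-21 glands. Macrophage markers summed to 2530 to 8300 in LTBR-Ig glands, against 5800 to 16000 in MOPC-21 glands, with 2 of 10 called lower. B cell markers summed to 267 to 1620 in LTBR-Ig glands, against 1530 to 6000 in MOPC-21 glands, with all 5 called lower, and all 4 T cell markers tested were called lower. Adipocyte markers summed to 228 to 658 in LTBR-Ig glands, against 219 to 604 in MOPC-21 glands. Their part in the changes of the members was not tested.

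Without the 8 lacrimal arrays high in Amy1, which leaves 2 LTBR-Ig and all 4 MOPC-21 arrays at week 16, no member passed the test and 4 of 29 had an unadjusted p under 0.05. Of all genes 0.11% then passed and 15.6% had such a p. Insig1 was then at +0.81 (adjusted p = 0.23), Pmvk at +0.77 (adjusted p = 0.24), Hmgcs1 at +0.44 (adjusted p = 0.28) and Abca1 at -0.84 (adjusted p = 0.23). The 2 LTBR-Ig arrays kept still had salivary product sums of 8860 or more, above the 87.0 to 1400 of MOPC-21 arrays. Leaving out arrays by Amy1 thus did not remove the difference in this sum. The sum is not specific to salivary glands. Lacrimal arrays of untreated week 8, with Amy1 at 3.74 or below, had sums of 2730 to 5220. Against untreated glands, where 2 of 4 arrays were also left out, no member passed and 7 had an unadjusted p under 0.05, as did 11.4% of all genes, of which 0% passed. The comparison of week 16 with week 8 called 16 members without these arrays, where 19.3% of all genes were called and 48.6% passed. Leaving out MOPC-21 replicate 3 alone left no member past the test between LTBR-Ig and MOPC-21, and leaving out LTBR-Ig replicate 3 or 4 left 3, whereas without MOPC-21 replicate 2 the count was 11. Against untreated glands, leaving out LTBR-Ig replicate 2, 3 or 4 or untreated replicate 3 or 4 left no member past the test. Shares of all genes without these single arrays were not counted, so a shift of the members cannot be told from a shift of all genes. In untreated salivary glands of week 16, Hmgcs1 averaged 9.58 and Pmvk 5.81, both below the untreated lacrimal means of 9.97 and 7.54, while Insig1 averaged 9.03 there, above the lacrimal 8.07. Amy1 was at 7.36, 7.505, 7.75 and 14.19 in those salivary arrays, against 12.22 and 15.08 in the 2 LTBR-Ig arrays left out. The salivary means thus come mostly from arrays lower in Amy1, and they do not show what salivary transcripts would add to lacrimal arrays. The part of salivary transcripts in the LTBR-Ig differences was not tested.

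Salivary glands, which hold few lymphocytes in these arrays (B cell markers summed to 40.4 to 47.0 at week 16, against 38.2 to 115 at week 8, and were too low to test), were compared in the same way. In untreated mice 1 of 30 members was called higher at week 16 than at week 8 and 5 lower, where 3.98% of all genes were called higher and 3.37% lower. At any fold, 4 members passed higher and 15 lower, where 15.5% and 22.6% of all genes did. Of the 5 mevalonate genes tested 3 passed lower, of the 8 from squalene to cholesterol 5 passed lower and 1 higher, and of the 8 of fatty acid synthesis 6 passed lower and 1 higher. The median change of all 30 was -0.40, where the median of all genes was -0.07. Amy1 was at 7.36 to 14.19 in these week 16 arrays, against 4.58 to 5.56 at week 8. Whether the mix of salivary glands differed between the ages was not tested.

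The largest change in either gland was that of Lpl, which releases fatty acids from circulating lipoproteins. It stood at 6.80, 6.87, 7.05 and 7.74 in salivary glands of week 16, against 9.54, 10.12, 10.11 and 10.10 at week 8 (-2.85, SE 0.193, adjusted p = 6.4e-12), and its second probe set gave -2.71. Every later salivary group, treated or not, was at 7.74 or below in each array. Adipocytes are a main source of Lpl in many tissues. Of 5 adipocyte markers tested, Fabp4 was called lower (-1.28, adjusted p = 0.009) and Slc2a4 higher (+1.83), the 8 markers summed to 513 to 2610 at week 16, against 709 to 1300 at week 8, and Cidec, Lep and Retn were at or below the floor in both groups. Their part in the change of Lpl was not tested.

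Abcg1 was the only member called higher, at 7.47, 7.54, 7.32 and 7.17 at week 16, against 6.01, 6.12, 5.68 and 5.53 at week 8 (+1.54, SE 0.119, adjusted p = 8.4e-11). Of 9 macrophage markers tested, none passed higher and 5 passed lower, with sums of 1420 to 1730 at week 16, against 1700 to 2590 at week 8. Abca1 passed the test at less than 2-fold (+0.55, adjusted p = 0.0044), and Apoe did not pass (-0.10, adjusted p = 0.87).

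The other calls were sterol enzymes. Sqle had 4.93, 4.41, 4.93 and 5.16 at week 16, against 6.86, 6.28, 6.38 and 6.51 at week 8 (-1.65, SE 0.225, adjusted p = 2.1e-06). Cyp51 was at 5.72, 4.85, 5.46 and 5.89 at week 16, against 7.26, 6.67, 6.88 and 7.34 at week 8 (-1.56, SE 0.239, adjusted p = 1.1e-05). In neither gene did the ages overlap. Idi1 stood at 6.59, 5.88, 6.40 and 6.69 at week 16, against 8.51, 7.42, 7.67 and 8.10 at week 8 (-1.53, SE 0.229, adjusted p = 7.6e-06). Fdps was at 7.13, 6.68, 7.08 and 7.51 at week 16, against 8.78, 7.88, 8.31 and 8.71 at week 8 (-1.31, SE 0.284, adjusted p = 0.00069). Both were lower in every week 16 array. Among sterol genes that are not members, Stard4 (-1.30) and Hsd17b7, a sterol ketoreductase (-1.26), were called lower in salivary glands. Of other lipid droplet and fatty acid genes, Mgll was called higher (+1.57) and the desaturase Fads2 lower (-1.001).

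**Figure D3:**
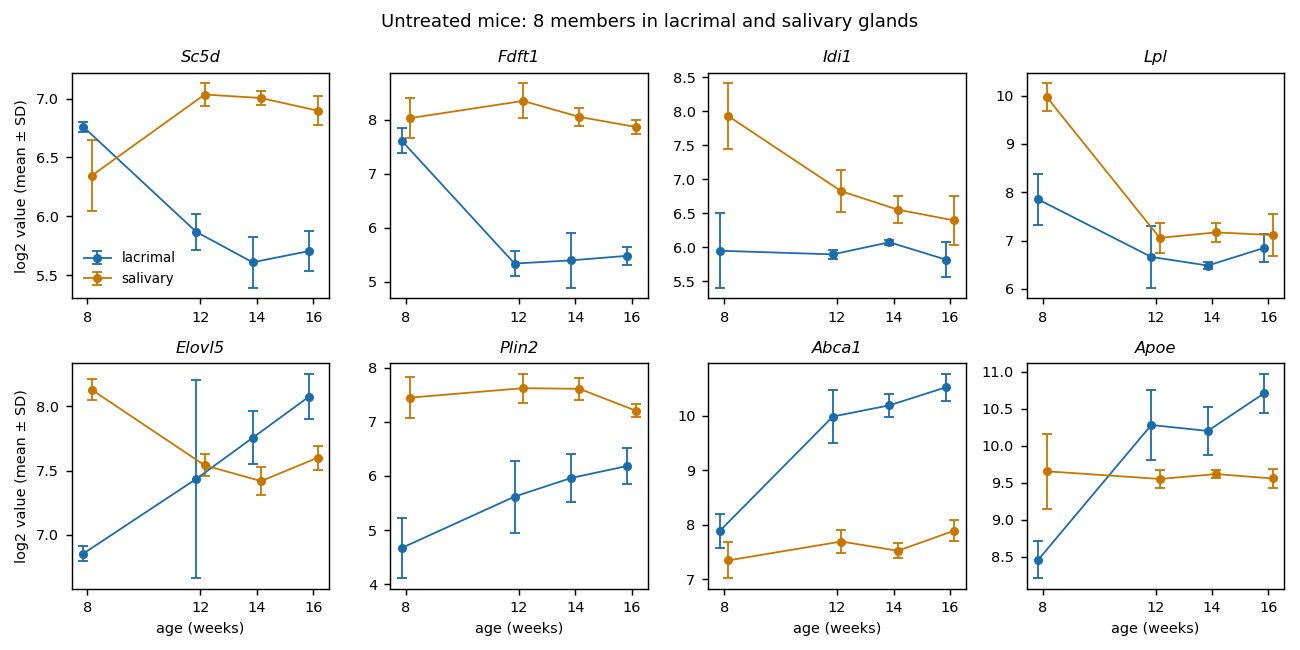
Mean log2 value ± SD (vertical axis) of 8 members at weeks 8, 12, 14 and 16 (horizontal axis) in untreated lacrimal and salivary glands. The lacrimal and salivary lines of Fdft1 and Abca1 draw apart after week 8, to differences of -2.39 and +2.63 at week 16, and those of Lpl come together, to -0.27.

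The age changes of both glands, which share no arrays, were set side by side. The labels do not say whether lacrimal and salivary arrays came from the same mice, so the glands may not be independent. Fdps, Sqle, Cyp51, Abcg1 and Lpl were called in the same direction in both, which is 33.3% of the 15 lacrimal calls and 83.3% of the 6 salivary ones. At any fold, 13 members passed in the same direction in both glands, 59.1% of the 22 in lacrimal and 68.4% of the 19 in salivary glands. Among all genes that passed with age in lacrimal glands and were tested in both, 28.8% of 5124 did so. No such share was counted for all genes that passed in salivary glands. In sign alone, 17 of the 22 members (77.3%) went the same way in salivary glands, against 63.7% of those 5124 genes, and this difference was not tested. The other two that passed in both, Sc5d and Elovl5, went in opposite directions.

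The difference between the glands in their change with age was tested itself, in a fit of all 61 arrays. It was called for 10 of 30 members, 6 more positive in the lacrimal gland and 4 more negative, where 13.7% and 6.52% of all genes were. Apoe had the largest, with a lacrimal minus salivary difference of +2.34 (SE 0.478, adjusted p = 9.3e-05), and Abca1 gave +2.09 (SE 0.267, adjusted p = 1.3e-08). Fdft1 gave -1.97 (SE 0.282, adjusted p = 1.6e-07), with salivary arrays at 7.83, 7.85, 8.05 and 7.74 at week 16, against 8.57, 7.93, 7.88 and 7.76 at week 8, where the ages overlapped. Sc5d gave -1.61 (SE 0.205, adjusted p = 1.2e-08), and its salivary arrays were higher at week 16, at 6.89, 6.91, 7.04 and 6.75, against 6.67, 5.95, 6.43 and 6.34 at week 8 (+0.55, adjusted p = 0.002).

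Elovl5 gave +1.75 (SE 0.293, adjusted p = 3.7e-06), since lacrimal arrays had 7.92, 7.95, 8.13 and 8.30 at week 16, against 6.87, 6.77, 6.87 and 6.91 at week 8, and salivary arrays had 7.51, 7.53, 7.70 and 7.66 at week 16, against 8.05, 8.19, 8.07 and 8.20 at week 8. The salivary change was -0.53 (adjusted p = 0.0043). Plin2 gave +1.76 (SE 0.357, adjusted p = 8.9e-05), with salivary arrays at 7.08 to 7.36 at week 16, against 7.15 to 7.97 at week 8. Lpl gave +1.85 (adjusted p = 0.00046) and Idi1 +1.40 (adjusted p = 0.00016), both from the deeper salivary fall. Me1 gave -1.16 (adjusted p = 6.5e-05) and Dgat2 -1.01 (adjusted p = 0.035).

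At week 8 the glands differed in 15 of 30 members, 5 called higher in lacrimal than in salivary glands and 10 lower, where 7.46% and 13.6% of all genes were. Dgat2 had the largest difference, at 8.46, 8.43, 8.18 and 8.28 in lacrimal glands, against 3.87, 3.17, 3.87 and 4.34 in salivary glands (+4.53, SE 0.277, adjusted p = 8.6e-20), where 3 of the 4 salivary arrays were below the floor. Pmvk (+2.68, SE 0.217, adjusted p = 3e-15) and Me1 (+2.27, SE 0.163, adjusted p = 3.8e-17) were also higher in lacrimal glands, with salivary arrays at 5.82 to 6.66 for Pmvk and 5.67 to 6.09 for Me1. Plin2 stood at 4.92, 4.60, 3.92 and 5.23 in lacrimal glands, against 7.15, 7.19, 7.97 and 7.47 in salivary glands (-2.78, SE 0.253, adjusted p = 1.5e-13). Elovl6, the elongase of long saturated fatty acids, was at 3.35, 4.12, 3.83 and 3.92 in lacrimal glands, against 6.60, 6.11, 6.25 and 7.06 in salivary glands (-2.70, SE 0.201, adjusted p = 1.5e-16), where 3 of the 4 lacrimal arrays were below the floor. None of these genes overlapped between the glands.

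Lpl at week 8 was lower in lacrimal glands, at 8.38, 7.85, 7.14 and 8.03, against 9.54 to 10.12 in salivary glands (-2.12, SE 0.301, adjusted p = 4.4e-08). Idi1 was at 6.55, 5.999, 5.22 and 6.02 in lacrimal glands, against 7.42 to 8.51 in salivary glands (-1.98, SE 0.21, adjusted p = 1.9e-11), and Nsdhl at 6.55, 6.60, 6.44 and 6.55 in lacrimal glands, against 7.41 to 8.16 in salivary glands (-1.29, SE 0.15, adjusted p = 2.5e-10). All of these separated the glands without overlap. Probe sets of Hmgcs1 disagreed, as the one used gave +0.93 and another gave -0.77 (adjusted p = 0.00063). At week 16, 8 members were called higher in lacrimal glands and 5 lower, where 13.2% and 12.1% of all genes were. Abca1 was among them at +2.63 (SE 0.189, adjusted p = 2.9e-17) and Fdft1 at -2.39 (SE 0.199, adjusted p = 6e-15), neither of which was called at week 8, while Lpl did not pass (-0.27, adjusted p = 0.47).

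In salivary glands no member passed the test of LTBR-Ig against MOPC-21. At week 16 none passed (limma), and 1 of 30 had an unadjusted p under 0.05, where 0.0505% of all genes passed and 6.06% had such a p. At week 12 none passed, and 2 had an unadjusted p under 0.05, where 0.0404% of all genes passed and 12.0% had such a p. This comparison had 2 LTBR-Ig arrays, and no member was called when MOPC-21 replicate 2 was left out. The members' changes at week 16 ranged over -0.37 to +0.38. In the test of whether the treatment effect differed between glands, no member passed, where 4.56% of all genes passed, and 8 of 30 members had an unadjusted p under 0.05, as did 24.4% of all genes.

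**Figure D4:**
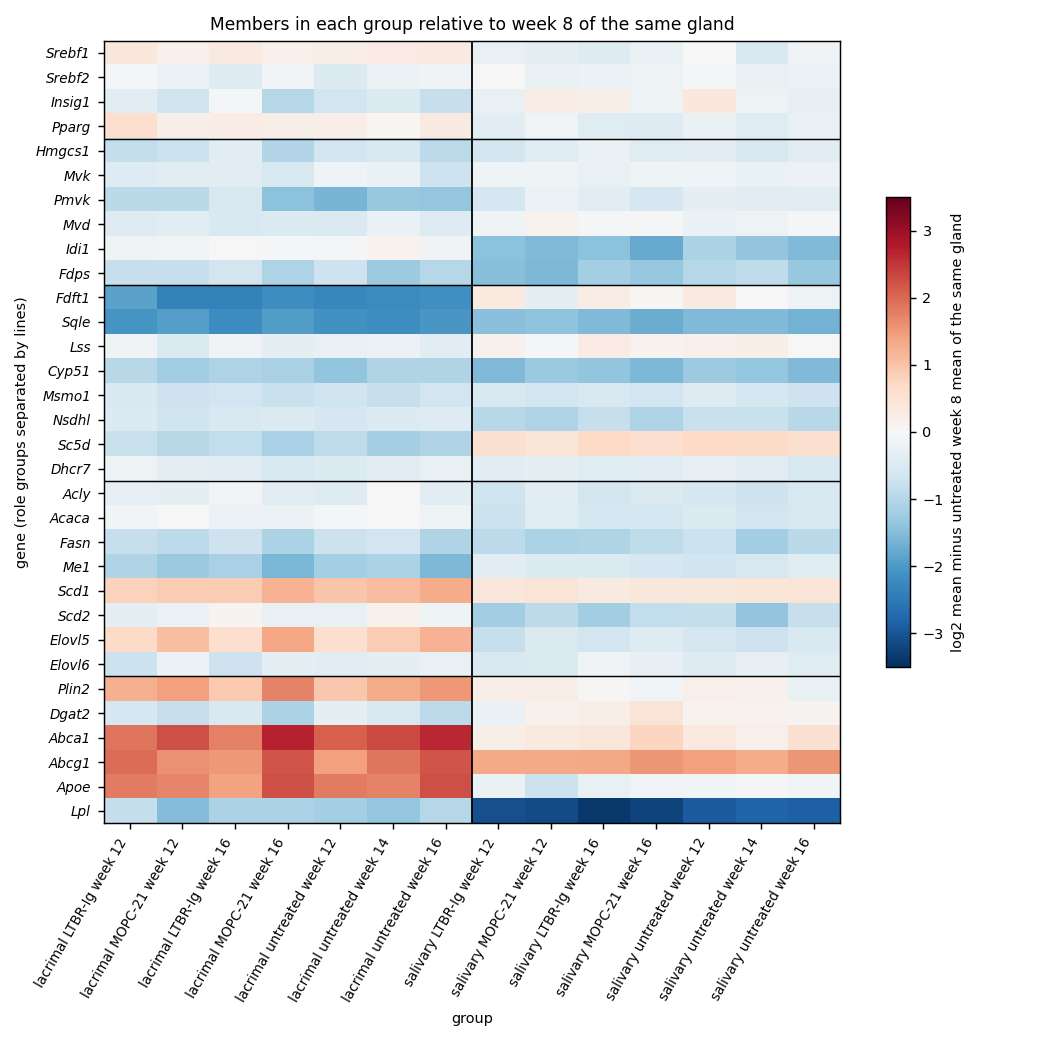
Group mean of each member minus the untreated week 8 mean of the same gland, on the log2 scale (colour), with genes down the side by role and the 7 later groups of each gland across. On the lacrimal side Fdft1 and Sqle are blue and Abca1, Abcg1 and Apoe red in all 7 groups, and on the salivary side Lpl is the darkest blue, reaching -3.38 in LTBR-Ig week 16.

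Across all 16 groups the spread of levels differed between members. The highest and lowest group means were 6.07 and 5.38 for Lss and 7.93 and 7.25 for Srebf1, against 8.34 and 3.59 for Dgat2. In salivary glands untreated week 8 had the highest mean of the 8 groups in 10 of the 14 sterol synthesis genes, with Fdft1, Lss, Mvd and Sc5d the exceptions, and in 7 of the 8 fatty acid synthesis genes, with Scd1 the exception. Here too the share of all genes highest at week 8 was not counted.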

How the data were processed

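Each lacrimal array held the glands of a mouse, and salivary arrays, per the study's methods, the combined salivary glands. RNA was extracted with Trizol and labelled with a NuGEN Ovation kit. The deposited log2 values were made by the authors with GCRMA, which corrects background and normalizes across arrays, so that undetected transcripts still have a value near the array median of 3.194 to 3.332. Precision is limited by the number of arrays. Groups came from the labels. Of 45101 probe sets, 34958 carried 1 gene symbol, 932 several and 9211 were not listed. A probe set was tested if it exceeded 4 in at least 2 arrays of a group. Group means were fitted per gland (31 lacrimal and 30 salivary arrays), or over all 61 arrays between glands, with limma 3.58.1 in R 4.3.3 and a trended variance, and p-values were adjusted by Benjamini-Hochberg over all probe sets tested (20077 in lacrimal glands). The fit was tested on simulated data. Called members were given in full, up to 8 per comparison by the smallest adjusted p, and others in counts and ranges, except that members past the test between treatments, of which none was called, were named after their values were seen. From other lists up to 4 called genes were named, and Scap was added after its value was seen. Members and gene lists were chosen with earlier results of these data known. Counts of members past the test at any fold were added after seeing the data. The labels do not say that salivary arrays came from separate mice, so that their p-values measure the spread between these samples, which may be technical.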

Additional observations from a re-analysis of the deposited data

Results flagged for a closer look

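Among 40 sets of 4 values looked at, each of 1 gene in 1 group, 1 array lay far from the others of its group. Chance gives about 1 in 20 such sets, but the sets share arrays and are not independent. This was salivary untreated week 8 replicate 1 for Lpl, at 9.545, with the other 3 arrays at 10.1 to 10.12. It still lay above every array of the later salivary groups.

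The change of untreated glands with age differed between the tissues in 10 members by a test of the difference itself (limma, adjusted p under 0.05 and a difference of 1 or more on the log2 scale, lacrimal minus salivary). Of the export, storage and uptake genes, Apoe differed by 2.343, Abca1 by 2.086, Lpl by 1.852, Plin2 by 1.758 and Dgat2 by -1.012. Of the sterol synthesis genes, Fdft1 differed by -1.974, Sc5d by -1.607 and Idi1 by 1.402. Of the fatty acid genes, Elovl5 differed by 1.752 and Me1 by -1.157. Macrophage and B cell markers rose in the lacrimal gland over the same ages, and their part in these differences was not tested.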

How the results depend on the processing

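The age calls in lacrimal glands depended most on the call rule. Counts at any fold were chosen after seeing the data. With the posterior probability rule that follows the wording of the study's methods, 9 members rather than 15 were called at week 16 over week 8 in lacrimal glands, 11 rather than 22 by posterior probability at any fold, 5 rather than 19 at any fold in salivary glands, and 6 rather than 10 differed between the glands. That rule left 0 members past the test between LTBR-Ig and MOPC-21 and 0 between LTBR-Ig and untreated glands at week 16, as did leaving out the arrays high in Amy1. With only the arrays compared in the fit, 1 member rather than 6 passed against MOPC-21 and 7 rather than 4 against untreated glands. Averaging all probe sets of a gene gave 1 call against MOPC-21, 1 against untreated glands and 3 rather than 6 in salivary glands with age. When each array was left out in turn, LTBR-Ig against MOPC-21 gave 0 to 2 calls and 0 to 11 members past the test, with 0 past without MOPC-21 replicate 3 and 11 without MOPC-21 replicate 2. Against untreated glands there were 0 to 1 calls and 0 to 7 members past, with 7 without LTBR-Ig replicate 1, 2 without untreated replicate 2, and 0 without LTBR-Ig replicate 2, 3 or 4 or untreated replicate 3 or 4. The calls with age ranged over 7 to 11 at week 12, 12 to 14 at week 14 and 11 to 16 at week 16 in lacrimal glands and 6 to 8 in salivary glands, and those of the difference between glands over 9 to 11 for age and 0 to 1 for treatment. Among the alternative settings, shares of all genes were counted only without the arrays high in Amy1. The other counts are therefore not set against all genes. Of 697 alternatives for 40 single changes, 642 kept the direction and side of the threshold, 55 no longer passed, all 55 in LTBR-Ig comparisons, and 0 turned round. The cause of these losses was not tested. The age and gland changes in this tally were the called members with the smallest adjusted p, up to 8 per comparison. Their passing was thus favoured by that choice. The tally leaves out the posterior probability rule and settings in which a gene was not tested. With the replicate number as a block (replicate block), 8 members passed against MOPC-21 and 5 against untreated glands, and no count of calls moved. Same-numbered arrays did not deviate together, as 45 pairs correlated at -0.498 to 0.496 and 10 were over 0.1.

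Signal near background limits Sqle, Mvk, Elovl6, Acacb, Elovl7, Stard4, Scarb1 and Ppargc1a in lacrimal glands and Dgat2 in salivary glands, whose fitted changes are then partly set by the floor. Genes with several probe sets can differ between them, as Sc5d, Lss and Hmgcs1 did. No value separates a change within a cell type from a change in its share.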
